A study of Mus musculus with 3 samples.

Results

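Patrolling monocytes are the circulating monocytes of the mouse that carry little Ly6C. Here they are the 601 barcodes, of 22688 barcodes with 200 or more detected genes, that passed a gate on raw counts of unique molecular identifiers (UMIs, each a single captured probe molecule). The gate asked for at least 1 UMI of Csf1r, the receptor for the growth factor of monocytes and macrophages. It also asked for a summed count of Ace, Treml4, Cd300e and Adgre4 of at least 5 that was larger than the summed count of Ccr2, F13a1, Fn1 and Chil3, which mark the Ly6C-high monocytes. Barcodes with more than 2 UMIs of the B-cell genes Cd79a, Cd79b and Ms4a1, more than 1 UMI of the T-cell genes Cd3e, Cd3d and Cd3g, or more than 4 UMIs of the neutrophil genes Csf3r and Cxcr2 were left out. These measured values chose the cells, so the levels of the gate genes are given below as a description, with no test.

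The study profiled peripheral blood leukocytes of untreated male mice in 3 libraries, from animals aged 8 weeks (replicate 1), 9 weeks (replicate 2) and 10 weeks (replicate 3), all with the same batch label. Red cells were lysed, and nucleated cells were sorted on the dyes DAPI and Draq5, fixed and counted with a gene-specific probe panel on the 10x platform. There is no second treatment, so each comparison is between cell classes of the same blood, and age and library cannot be told apart. The labels do not say that the libraries came from separate or from single animals, so p-values measure the spread between these 3 samples, which may be technical.

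Patrolling monocytes stay in the blood vessels, crawl along the endothelium with the integrin LFA-1 and clear debris from its surface. They form from Ly6C-high monocytes, and both their formation and their survival need the nuclear receptor Nr4a1, with C/EBPβ acting upstream of it. They are known for high levels of the Fc receptor FcγRIV (Fcgr4) and of CD43 (Spn).

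The gate kept 433 barcodes in replicate 1, 72 in replicate 2 and 96 in replicate 3. Their share of the barcodes with 200 or more genes was 3.93% (exact 95% binomial interval 3.58 to 4.32), 1.43% (1.12 to 1.79) and 1.45% (1.17 to 1.76), a mean of 2.27% ± 1.44 (SD, n = 3). The interval of replicate 1 lay above those of the other libraries. Intervals here cover counting error only. Members held a median of 4860, 4670.5 and 4288.5 UMIs and 2396, 2363.5 and 2206 genes in replicates 1, 2 and 3.

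Most members lay far from the lower limit on the summed count of the 4 defining genes. The summed count of the 4 defining genes had a median of 44, 38 and 35.5 UMIs in replicates 1, 2 and 3, and 4, 1 and 2 members had a sum of 5 to 7. The single member at a sum of 5 held 10 UMIs of Nr4a1, 4 of Spn, 4 of Itgal and none of Fcgr4. The single barcode that met every other limit at a sum of 4 held 2 UMIs of Nr4a1, 2 of Spn, 1 of Itgal and none of Fcgr4. Of the members, 387 (64.4%) had no UMI of the 4 genes that mark Ly6C-high monocytes, and 55 had 5 or more. The limit against those genes took the barcodes from 971 to 770, and the B-cell, T-cell and neutrophil limits took them to 601.

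Members were compared with 892 NK cells, 44 dendritic cells, 9666 B cells, 6079 T cells and 2914 neutrophils, gated the same way in the same libraries. Counts were summed per class and library, and a level below is CPM (counts divided by the TMM-scaled library total and multiplied by 1e6). Probes differ between genes, so levels are compared between classes and never between genes. Each difference is a log2 fold change with its standard error (SE) and a Benjamini-Hochberg adjusted p from 1 edgeR quasi-likelihood fit over 10410 genes outside the gates, with the library as a block. A gene is called higher or lower at an adjusted p below 0.05. In these sums, fewer cells that express a gene and less RNA per expressing cell cannot be told apart.

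Some features of the libraries touch the results below. Haemoglobin and other erythroid genes summed to 228, 13181 and 3559 CPM over raw totals in the patrolling monocytes of replicates 1, 2 and 3, and replicate 2 was also the highest library in NK cells (806, 13964 and 2912) and B cells (1378, 30327 and 6611). The 10 NK-cell marker genes gave 384 UMIs in the members of replicate 1 and 2 and 1 UMIs in the others, and 353 of them (91.9%) lay in 5 barcodes. The neutrophil gate also took 314 barcodes (10.8% of 2914) that held monocyte transcripts or few S100a8 and S100a9 UMIs, and 14 of the 44 dendritic cells held more than 2 UMIs of F13a1, Fn1 and Chil3. The comparisons were therefore repeated with those barcodes left out, a choice made after the data were seen, and the results are called the tighter gates below. The dendritic class rests on 29, 7 and 8 cells, with Xcr1 or Clec9a in 43 of them and Siglech in 16. Between 48 and 101 barcode sequences were shared by pairs of libraries.

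The gate genes themselves were far higher in members than in any other class. Ace, the angiotensin-converting enzyme, stood at 5175, 4766 and 5068 CPM in the patrolling monocytes of replicates 1, 2 and 3, and its mean in the other classes was at most 11.6 CPM. Cd300e, an activating receptor of the CD300 family, stood at 1153, 1018 and 947 CPM against at most 1.58. Treml4 stood at 1544, 1216 and 1591 CPM and Adgre4, an adhesion G-protein-coupled receptor, at 1987, 1754 and 1721, with neutrophil means of 104 and 35.2. These values restate the gate and are given for scale. In dendritic cells and neutrophils, the gates of those classes also capped the summed count of these genes.

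Nr4a1 and Fcgr4, which mark these cells and were not used in the gate, were both higher in members than in every other class. Nr4a1 stood at 2590, 2412 and 3131 CPM, a mean of 2711 ± 374 (SD, n = 3). The next class was neutrophils, at 299, 194 and 260 CPM, and no library of any class overlapped with the members. The log2 fold was 3.40 against neutrophils (SE 0.31, adjusted p = 2.47e-06), 4.65 against dendritic cells (SE 0.55, adjusted p = 6.15e-05), 6.32 against NK cells, 6.91 against B cells and 8.23 against T cells. Fcgr4 stood at 1080, 1129 and 792 CPM in members and at 400, 375 and 399 CPM in neutrophils, again with no overlap (log2 fold 1.35, SE 0.09, adjusted p = 4.51e-17). With the tighter neutrophil gate the neutrophil mean of Fcgr4 was 618 CPM and the log2 fold 0.61 (adjusted p = 1.95e-08). Dendritic cells held no Fcgr4 UMI, which makes members at least 153-fold higher, and NK cells held 2 UMIs, a pooled ratio of 1814 (exact 95% interval 502 to 14986).

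Nr4a1 was found in 98.0% ± 0.81 (SD, n = 3) of members and in 5.31% of B cells, at median depths of 4288.5 to 4860 and 3081 to 3224 UMIs. When each barcode was thinned to 2000 UMIs, the share of members with Nr4a1 was 96.2%. Fcgr4 was found in 85.1% ± 4.08 of members, 73.6% after thinning, against 0.363% of B cells. Both shares lay far above those in B cells, a class that should lack Fcgr4. The thinning left out 18, 4 and 8 members of replicates 1, 2 and 3 that held fewer UMIs.

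**Figure D1:**
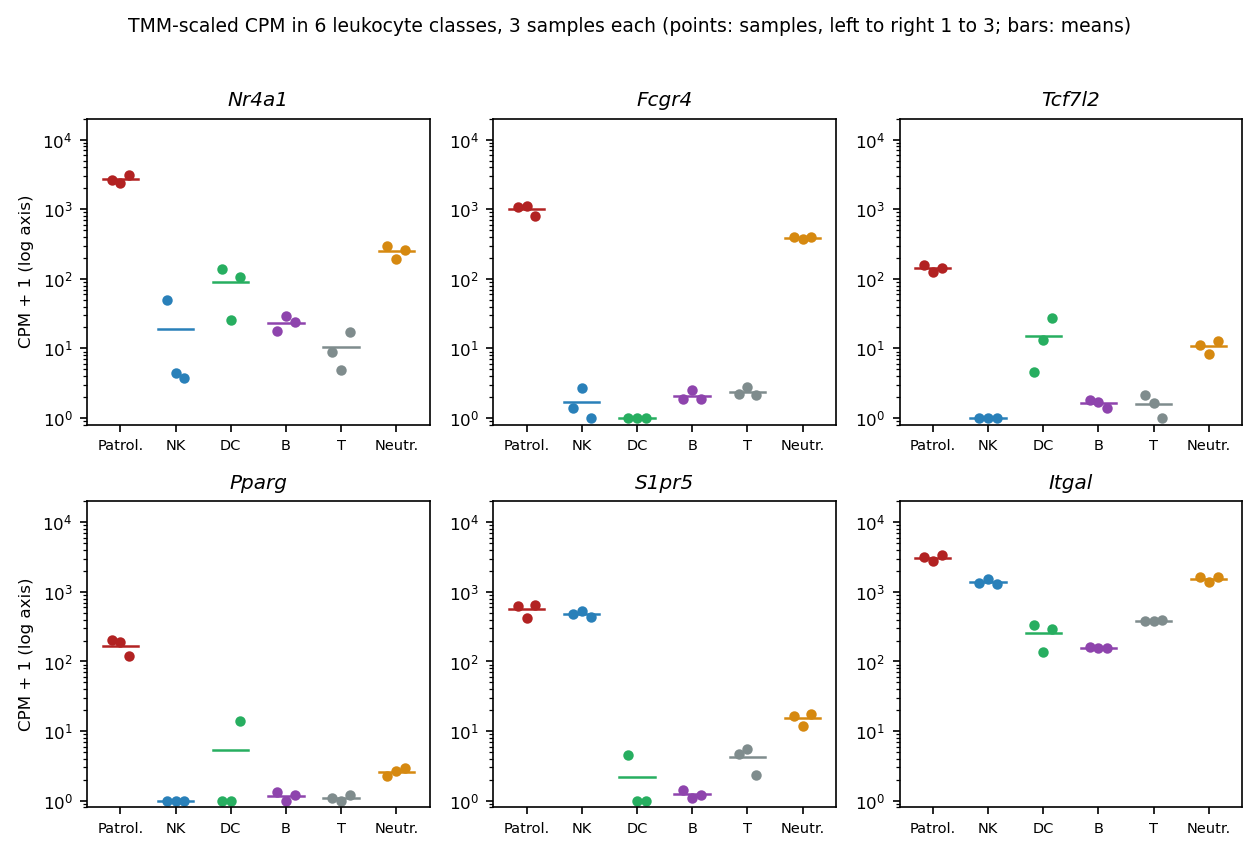
Level of Nr4a1, Fcgr4, Tcf7l2, Pparg, S1pr5 and Itgal (TMM-scaled CPM plus 1, log axis) in the 6 classes; points are the 3 libraries and bars their mean. Nr4a1 lies between 2412 and 3131 in patrolling monocytes, above every library of every other class, Itgal lies between 2743 and 3337, also above every other library, and the S1pr5 points of patrolling monocytes (418 to 647) and NK cells (434 to 522) overlap.

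Beside the erythroid list, the marker lists of other cell types were measured in members as sums of CPM over raw totals. Several lists hold genes that the gates used, 4 of the 6 patrolling, 4 of the 7 classical monocyte, 5 of the 10 NK, 7 of the 11 dendritic, 3 of the 9 B-cell, 3 of the 11 T-cell and 2 of the 11 neutrophil genes. The gate of the members set part of the patrolling, classical, B-cell, T-cell and neutrophil sums, which are therefore no independent evidence of identity. The classical monocyte list summed to 452, 790 and 358 CPM, the neutrophil list to 404, 362 and 379, the dendritic list to 206, 189 and 164, the B-cell list to 97.9, 165 and 185 and the T-cell list to 22.1, 35.2 and 32.8. The platelet list reached 86.5 CPM and the endothelial list 8.11 CPM in the highest library. The tissue macrophage list summed to 13.1, 8.11 and 0 CPM, with 7, 10 and 12 of its 12 genes at 0. The NK list summed to 173, 5.41 and 2.34 CPM. The list of 6 patrolling markers summed to 12072, 11372 and 12180 CPM, below the erythroid sum of 13181 in replicate 2.

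A total of 490 genes (4.71% of 10410) were called higher in patrolling monocytes than in each of the 5 other classes, and 125 (1.2%) were called lower than in each. The 5 comparisons share the members' sums, so they are not independent of each other. They included the transcription factors Cebpb, Pou2f2, Tcf7l2 and Hes1, the lipid regulator Pparg with Fabp4 and Cd36, and the inhibitory receptors Havcr2, Lair1 and Ceacam1. Of the 490 genes, 414 stood higher in every library against every class and at 50 CPM or more. The 20 of these with the largest fitted fold against their nearest class were, in order, Lilra5, Dnah12, Gjb2, Fabp4, Pparg, Slc12a2, Cd36, Eno3, Ly6i, Smpdl3b, Ip6k3, Tcf7l2, Havcr2, Hfe, Bcl2a1b, Tmem26, Cyp2ab1, Dusp16, Hes1 and Nr4a1. They were picked by these differences, so their folds describe them and support nothing further. Where a class held few or no UMIs of a gene, the fitted fold is poorly determined. The order of genes at the top is therefore uncertain. Gjb2, a gap-junction protein, lost its calls with the Wald test of DESeq2 (adjusted p from 0.0742 to 0.536). Dnah12, a dynein heavy chain, lost its call against dendritic cells with that test (adjusted p = 0.087) and without replicate 1 (adjusted p = 0.145).

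Promoters of these genes, from 250 bases before to 50 bases after the RefSeq start in GRCm38.p6, were searched on both strands for 4 motifs. GAGGAAGT, bound by the myeloid factor PU.1, was in 3.2% of 32851 promoters and in 3.51% of 10668 promoters of tested genes. Of the 414 genes that stood higher in every library at 50 CPM or more, 326 had promoters in the search. The motif was in 26 of their 412 promoters (6.31%). The search covered 19 promoters of 16 of the 20 genes, and 2 of these promoters (10.5%) held the motif. They were those of Havcr2, which encodes the checkpoint receptor Tim-3, and Bcl2a1b, an anti-apoptotic Bcl-2 relative. CCACCC, read by KLF factors, was in 36.5% of promoters of tested genes and 42.5% of those of the 414 genes. AAAGGTCA, the element of Nr4a1 monomers, was in 1.0% and 0.485%, and TTGCGCAA, a C/EBP element, in 0.319% and 0.243%. A match describes letters in a window and is no binding site shown by these data. The stretches upstream of Havcr2 and Fcgr4 are printed because both genes separated members from the other classes and both hold the PU.1 motif close to the start, 8 and 24 bases before it. Capitals mark the motif, GAGGAAGT on the plus strand for Havcr2 and its reverse complement ACTTCCTC for Fcgr4.
Havcr2, chr11:46454731-46454930, GRCm38.p6, plus strand: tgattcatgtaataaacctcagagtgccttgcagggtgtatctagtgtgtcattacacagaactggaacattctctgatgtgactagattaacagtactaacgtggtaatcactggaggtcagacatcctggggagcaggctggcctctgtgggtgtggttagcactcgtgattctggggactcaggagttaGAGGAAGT
Fcgr4, chr1:171018726-171018919, GRCm38.p6, plus strand: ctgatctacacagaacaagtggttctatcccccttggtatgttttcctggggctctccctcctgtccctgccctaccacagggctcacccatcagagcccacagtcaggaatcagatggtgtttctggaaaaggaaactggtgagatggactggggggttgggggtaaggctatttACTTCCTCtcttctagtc

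Lilra5, an activating receptor of the leukocyte immunoglobulin-like family at chr7:4237754-4243463 (GRCm38, plus strand), came first by fitted fold. It stood at 247, 202 and 234 CPM in members, with 1 UMI in all NK cells (pooled ratio 832, interval 149 to 32928), none in dendritic cells (at least 35.0-fold higher) and 2 in all neutrophils (745, interval 206 to 6167). Dnah12, at chr14:26693274-26891703 on the plus strand, stood at 122, 35.1 and 28 CPM, highest in replicate 1, and had no UMI in NK cells, dendritic cells or neutrophils (at least 113-fold, 14.3-fold and 203-fold higher). Against dendritic cells the counts bound Lilra5 and Dnah12 only from below, at 35.0-fold and 14.3-fold, so their places in the order are uncertain. Nr4a1 itself lies at chr15:101254269-101274795 on the plus strand and closed the list. Spans are those of the GENCODE genes and cover exons, introns and untranslated ends.

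Several of the 20 genes serve ion transport, metabolism and signalling. Slc12a2, a sodium, potassium and chloride carrier, stood at 502, 468 and 382 CPM, and its nearest class was T cells at 13.3, 11.6 and 10.9 CPM (log2 fold 5.23, SE 0.13, adjusted p = 1.62e-34). Eno3, the muscle form of the glycolytic enzyme enolase, stood at 1006, 810 and 840 CPM, and its highest level elsewhere was 61 CPM, in dendritic replicate 2. Dusp16, a phosphatase of stress kinases, stood at 549, 482 and 514 CPM and above neutrophils at 46.9, 42.2 and 47.8 (log2 fold 3.52, SE 0.12). Bcl2a1b stood at 175, 181 and 176 CPM, with B cells next at 13.6, 14.2 and 11.3 CPM (log2 fold 3.78, SE 0.14) and no UMI in dendritic cells (at least 25.7-fold higher). It belongs to a family of near-identical copies, so probe counts could be shared between them. No library of another class overlapped with members for these 4 genes.

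**Figure D2:**
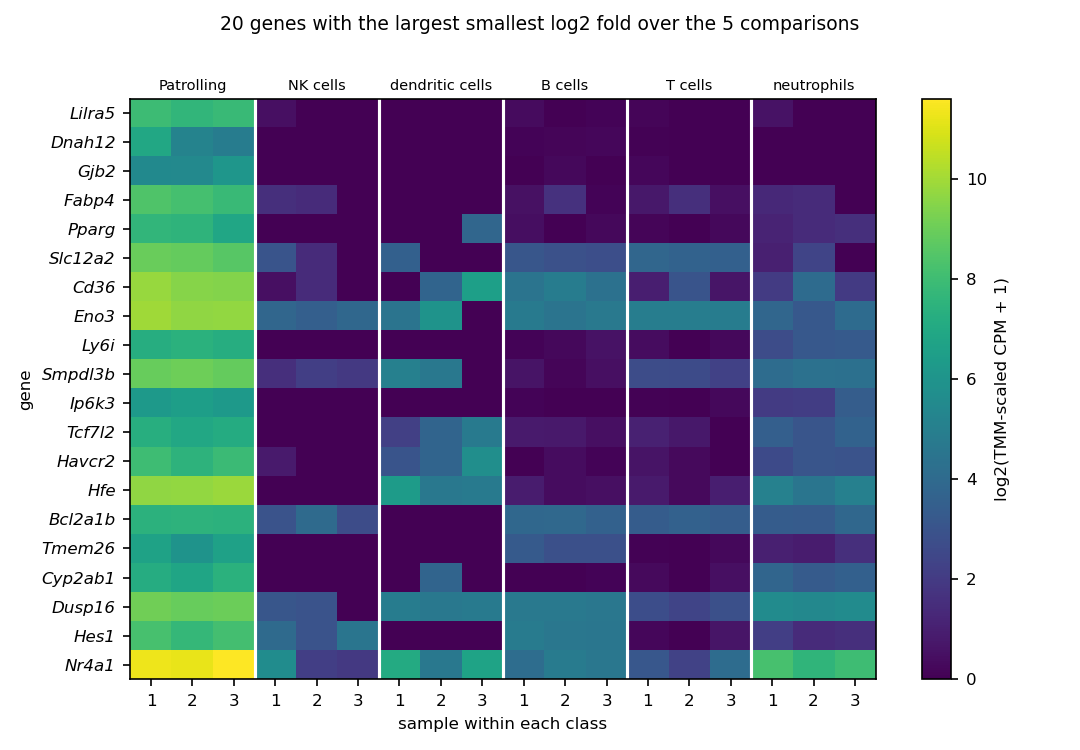
Level of the 20 genes with the largest fitted fold against their nearest class, as log2 of TMM-scaled CPM plus 1, in the 18 sums of 6 classes and 3 libraries. The 3 patrolling columns are the highest in every row by the way the genes were chosen, and Cd36 in B cells, at 19.2 to 28.3 CPM, shows how far below the members a next class can lie.

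Among the regulators, Cebpb, which acts upstream of Nr4a1, stood at 3242, 2629 and 3747 CPM in members. Its nearest class was neutrophils, at 1041, 955 and 1137 CPM (log2 fold 1.61, SE 0.08, adjusted p = 2.91e-21), and no library overlapped. Tcf7l2, a nuclear partner of β-catenin, stood at 156, 123 and 143 CPM. NK cells held no Tcf7l2 UMI, at least 174-fold less, and the log2 fold was 3.88 against neutrophils (SE 0.26, adjusted p = 5.31e-17) and 4.01 against dendritic cells (SE 0.54, adjusted p = 8.47e-08). Pou2f2, the octamer-binding factor Oct-2 best known from B cells, was higher in members, at 617, 591 and 690 CPM, than in B cells, at 263, 262 and 295 CPM (log2 fold 1.23, SE 0.09, adjusted p = 7.81e-15). Hes1, a Notch target, stood at 301, 211 and 283 CPM and had no UMI in dendritic cells, which makes members at least 42.0-fold higher. Its nearest class was B cells, at 27.6, 23.4 and 22.5 CPM (log2 fold 3.44, SE 0.13).

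Klf4, needed for these monocytes, stood at 849, 754 and 1158 CPM, close to dendritic cells at 809, 562 and 552, and replicate 2 of the members lay inside the dendritic range. Its call against dendritic cells (log2 fold 0.38, SE 0.14, adjusted p = 0.041) was lost without the library block (adjusted p = 0.139), with the tighter dendritic gate (adjusted p = 0.15) and in 4 more alternatives, and the log2 fold was -0.01 under plain library totals.

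Pparg, Fabp4 and Cd36, genes of lipid handling, were among the 20 chosen genes, although the whole list of 36 scavenging and lipid genes gave 14 higher and 15 lower against neutrophils (median 0.04). Pparg, a nuclear receptor that drives lipid uptake genes, stood at 201, 187 and 117 CPM, and 0 UMIs in NK cells make members at least 217-fold higher. Dendritic cells held 1 Pparg UMI, a pooled ratio of 82.1 (14.7 to 3249), and T cells 3, a ratio of 1790 (609 to 8708). Fabp4, a fatty acid carrier, stood at 341, 292 and 234 CPM in members, and its mean was 1.05 CPM in neutrophils and 1.23 in NK cells (log2 folds 7.90 and 7.51). Cd36, a scavenger receptor for oxidised lipids, stood at 896, 722 and 710 CPM, and its nearest class was B cells at 21, 28.3 and 19.2 CPM (log2 fold 5.17, SE 0.25, adjusted p = 3.94e-09). Among all 3 genes no library of another class reached the members. Pparg was found in 46.1% ± 12.9 (SD, n = 3) of members, 27.6% after thinning to 2000 UMIs, and in 0.059% of B cells.

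The apolipoprotein E gene Apoe and the lipoprotein receptor genes Lrp1 and Scarb1 were high as well. Apoe stood at 5880, 4997 and 7855 CPM, against 1197, 1333 and 1441 CPM in neutrophils (log2 fold 2.23, SE 0.14, adjusted p = 1.86e-11) and 372, 441 and 365 CPM in B cells (log2 fold 3.98, SE 0.14, adjusted p = 1.9e-15). Lrp1, a receptor for apolipoprotein E and other cargo, stood at 1584, 1404 and 1670 CPM against 385, 485 and 440 CPM in neutrophils (log2 fold 1.85, SE 0.09). The tighter neutrophil gate left a mean of 1.99 CPM of Lrp1 and a log2 fold of 8.86, and for Apoe 658 CPM and 3.16. The barcodes left out thus held nearly all of the Lrp1 of the neutrophil class and part of its Apoe. Scarb1, which takes up lipoprotein cholesterol, stood at 515, 488 and 504 CPM and in dendritic cells at 349, 354 and 250 CPM (log2 fold 0.61, SE 0.14, adjusted p = 0.000527). That call was lost under plain library totals (log2 fold 0.27, adjusted p = 0.18).

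Inhibitory receptors chosen from the genes higher against all 5 classes are described next, although the whole list of 34 paired receptors gave 6 higher and 22 lower against neutrophils (median -1.22). Havcr2 stood at 252, 178 and 242 CPM in members and 7.13, 12.2 and 52.5 CPM in dendritic cells (log2 fold 3.85, SE 0.43, adjusted p = 1e-09). Ceacam1, an adhesion molecule with an inhibitory tail, stood at 1260, 1073 and 1178 CPM, and its nearest class was neutrophils at 207, 219 and 246 (log2 fold 2.42, SE 0.17, adjusted p = 3.32e-08). Lair1, the inhibitory collagen receptor, stood at 660, 675 and 675 CPM, above dendritic cells at 96.3, 147 and 250 (log2 fold 2.33, SE 0.17) and neutrophils at 107, 108 and 102 (log2 fold 2.66, SE 0.08). None of the 3 genes overlapped with another class in any library. Il10ra, the receptor chain for the anti-inflammatory cytokine interleukin-10, was highest in members too, at 807, 652 and 613 CPM, with the smallest difference against dendritic cells at 449, 415 and 223 (log2 fold 0.86, SE 0.15, adjusted p = 2.23e-05).

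Among the adhesion genes, the α chain of LFA-1 was highest in members. Itgal, which encodes it, stood at 3200, 2743 and 3337 CPM and above every library of every class. Its nearest class was neutrophils, at 1648, 1368 and 1615 CPM (log2 fold 1.00, SE 0.09, adjusted p = 1.48e-12, and 0.41 with the tighter gate), then NK cells, at 1328, 1513 and 1308 (log2 fold 1.16, SE 0.10).

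Against NK cells, 2751 genes (26.4% of 10410) were higher in patrolling monocytes and 2749 (26.4%) lower. Under plain library totals the counts were 2105 and 4338, since that scaling moved the median log2 fold of all genes from -0.05 to -0.34. The egress receptor S1pr5 did not differ between members and NK cells at the threshold. CD43, both chains of LFA-1 and the Fc receptor adaptors were expressed in both classes and were called higher in members. The list of Fc receptor and ITAM genes had a mean sum of 16632 CPM over raw totals in members, 16881 in neutrophils and 8723 in NK cells. It is therefore not particular to members and NK cells. Id2, Tbx21 and S1pr1 were lower in members.

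S1pr5, a sphingosine-1-phosphate receptor that NK cells and patrolling monocytes use to leave bone marrow, stood at 626, 418 and 647 CPM in members and 485, 522 and 434 in NK cells. The ranges overlapped, and the difference did not pass the threshold (log2 fold 0.25, SE 0.13, adjusted p = 0.108). It passed without replicate 2 (log2 fold 0.39, adjusted p = 0.000193) and had the other sign under plain library totals (-0.01). Both classes stood far above the rest: the log2 fold of members was 5.31 against neutrophils and 7.45 against T cells, B cells had a mean of 0.248 CPM, and dendritic cells held 1 UMI (pooled ratio 264, interval 47.4 to 10442). Of members, 83.8% ± 2.82 held an S1pr5 UMI, against 75.5% of NK cells and 0.0862% of B cells, and after thinning the shares were 63.9% and 63.0%. The companion receptor S1pr1, used by lymphocytes to leave lymph nodes, stood at 8.59, 5.85 and 15.3 CPM in members and at 95.3, 118 and 147 CPM in NK cells (log2 fold -3.54, SE 0.25, adjusted p = 6.45e-17).

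Spn stood at 2620, 2208 and 2596 CPM in members and 1779, 1846 and 1664 CPM in NK cells, without overlap (log2 fold 0.48, SE 0.14, adjusted p = 0.00745). Under plain library totals it was 0.20 (adjusted p = 0.197). Fcer1g, the signalling chain of Fc receptors, stood at 4345, 3918 and 4653 CPM against 2531, 2457 and 2499 in NK cells (log2 fold 0.79, adjusted p = 3.91e-06), and its kinase Syk at 807, 640 and 868 against 418, 409 and 442 (log2 fold 0.87). Tyrobp, the adaptor DAP12, stood at 5392, 5117 and 5249 CPM against 3940, 3520 and 3505 (log2 fold 0.53, adjusted p = 0.00523), a call lost under plain library totals (log2 fold 0.25) and without replicate 2 (0.51), each with an adjusted p of 0.234. Each of these 3 signalling genes was higher in members in every library. By the list of 18 Fc receptor and ITAM signalling genes, 16 were higher and 1 lower, with a median log2 fold of 1.69.

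Other integrin chains stood close together in both classes. Itgb2, the β chain shared by LFA-1 and Mac-1, stood at 3667, 2968 and 3464 CPM in members and at 2292, 2375 and 2128 in NK cells (log2 fold 0.57, adjusted p = 0.000137). Itgam stood at 800, 602 and 720 CPM against 611, 717 and 390 in NK cells, overlapping, with a log2 fold of 0.31 (adjusted p = 0.0594). Itgax stood at 396, 254 and 374 CPM against 432, 337 and 459, with a log2 fold of -0.24 (adjusted p = 0.0515). Each lay near the threshold and passed it in 4 of the alternatives. The 5 genes high in these classes alone were picked for an absolute log2 fold under 1 between them. Of these 5, B4galt5 was slightly higher in members, at 656, 608 and 697 against 426, 479 and 451 CPM (log2 fold 0.56, adjusted p = 1.69e-06). Pdgfb, a platelet-derived growth factor chain, was slightly lower, at 93, 67.3 and 96.7 against 145, 149 and 111 CPM (log2 fold -0.67, adjusted p = 0.00552), a call lost without replicate 1 (adjusted p = 0.1) and with the DESeq2 Wald test (adjusted p = 0.0577).

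Regulators of innate lymphocytes were lower in members. Id2, which holds NK-cell identity, stood at 83.9, 55.6 and 61.1 CPM in members and 1871, 1935 and 1866 CPM in NK cells (log2 fold -4.62, SE 0.26, adjusted p = 1.86e-08). Tbx21, the T-box factor T-bet, was seen only in the members of replicate 1, at 6.57 CPM, the library that holds the 5 barcodes with NK transcripts, against 904, 1039 and 912 CPM in NK cells. It was called lower also with the members that held NK transcripts left out. Styk1 and Tnfrsf9 had no UMI in members and stood at 269 to 315 and 151 to 249 CPM in NK cells, so members were at least 261-fold and 148-fold lower. In the opposite direction, NK cells held no UMI of Nupr1, Tlr13, Ebi3 or Il27, and members were at least 458-fold, 430-fold, 185-fold and 59.8-fold higher.

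By gene list, members exceeded NK cells in most myeloid functions. Of 34 paired inhibitory and activating receptors, 30 were higher and 1 lower (median log2 fold 7.53). The 34 leave out Klrb1c, Klre1, Klra8 and Klra4, receptor genes of the NK gate. In NK cells the whole list summed to only 143, 176 and 167 CPM over raw totals in replicates 1, 2 and 3. Its mean sum was 10628 CPM in members and 11932 in neutrophils. The list thus holds mainly receptors of myeloid cells, and its count does not compare the paired receptors of NK cells with those of members. Of 36 scavenging and lipid genes, 27 were higher and 4 lower (median 3.88). Of 35 Toll-like receptor pathway genes, 25 were higher and 4 lower, and of 39 lysosomal genes 27 and 4 (medians 2.19 and 1.16). Cytokine genes were split, with 13 of 34 higher and 12 lower. Of 29 chemokine receptor and egress genes, 11 were higher and 8 lower, and their median of 0.25 became -0.01 under plain library totals. Survival genes gave 15 of 37 higher and 11 lower, and a median of 0.17 that became -0.13 under plain totals. These counts stand beside 26.4% in each direction over all genes tested.

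Against dendritic cells, 1655 genes (15.9%) were higher and 1105 (10.6%) lower, and 1021 and 1787 under plain library totals. The 44 dendritic cells limit the precision of this comparison, and a gene that did not pass here may still differ. Id2 and Irf8 were lower in members, and 10 of 20 class II pathway genes were lower and 5 higher. Irf8, a factor of dendritic cells, stood at 313, 418 and 339 CPM in members and 1690, 2210 and 3048 CPM in dendritic cells (log2 fold -2.66, SE 0.17, adjusted p = 1.89e-09). The tighter dendritic gate gave -2.96.

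H2-Ab1, the β chain of the class II molecule I-A, stood at 797, 751 and 339 CPM in members and 4129, 2430 and 4506 in dendritic cells, with no overlap (log2 fold -2.47, adjusted p = 0.00986). H2-Aa, its α chain, stood at 966, 880 and 300 CPM against 4860, 2796 and 4374 (log2 fold -2.46, SE 0.66, adjusted p = 0.0178). Both calls were lost without replicate 2 or without replicate 3 (adjusted p from 0.0839 to 0.148). Ciita, the master regulator of class II genes, stood at 52.1, 70.2 and 15.3 CPM against 303, 305 and 276 (log2 fold -2.61, adjusted p = 0.00403, and 0.119 where the gate used 50% of the UMIs and the test the rest), and Cd74, the invariant chain, at 3956, 3094 and 2449 against 11181, 5665 and 9629 (log2 fold -1.44, adjusted p = 0.0862). Replicate 3 was the lowest member library for all 4 genes. Of 20 class II pathway genes, 5 were higher and 10 lower (median -1.55). Against B cells 4 were higher and 13 lower, with H2-Aa at 5881, 6924 and 6071 CPM there (log2 fold -3.03, adjusted p = 0.00176). Against T cells, by contrast, 16 of the 20 were higher and 3 lower, and against NK cells 16 and 1.

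Bcl2, the anti-apoptotic protein, separated members from dendritic cells and neutrophils on one side and from lymphocytes on the other. It stood at 219, 135 and 137 CPM in members, 39.2, 12.2 and 26.3 in dendritic cells (log2 fold 2.54, SE 0.37, adjusted p = 2.79e-06) and 14.5, 4.14 and 4.88 in neutrophils (log2 fold 4.11, SE 0.21, adjusted p = 1.13e-16). It was lower in members than in NK cells (380, 380 and 354 CPM, log2 fold -1.04), B cells (-0.61) and T cells (601, 611 and 552 CPM, -1.72, SE 0.12). In no pair did the libraries overlap. Of 37 survival genes, 17 were higher than in dendritic cells and 2 lower (median 1.06).

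The lists differed in how many genes passed, beside 15.9% higher and 10.6% lower over all genes tested. Of 34 paired receptors, 23 were higher than in dendritic cells and 3 lower (median 2.62), and of 18 Fc receptor and ITAM genes 14 and 1 (median 1.14). Cytokine receptors gave 18 of 40 higher and 9 lower (median 0.56), chemokine and egress receptors 11 of 29 and 3 (median 1.35), and Toll-like receptors and sensors 17 of 35 and 7 (median 0.87). Of 34 cytokine genes, 12 were higher and 2 lower (median 2.03). Pla2g7, a lipoprotein-associated phospholipase, stood at 573, 515 and 578 CPM and Tgm2, a transglutaminase, at 402, 398 and 407, both with no UMI in dendritic cells (at least 82.7-fold and 58.8-fold higher). Upb1 had no UMI in members and stood at 121, 220 and 197 CPM in dendritic cells, at least 138-fold lower in members. Tppp3 was high in both classes, at 1230, 1085 and 1433 CPM against 781, 171 and 801 (log2 fold 0.98, adjusted p = 0.094, and 1.34 with the tighter gate, adjusted p = 0.0376).

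**Figure D3:**
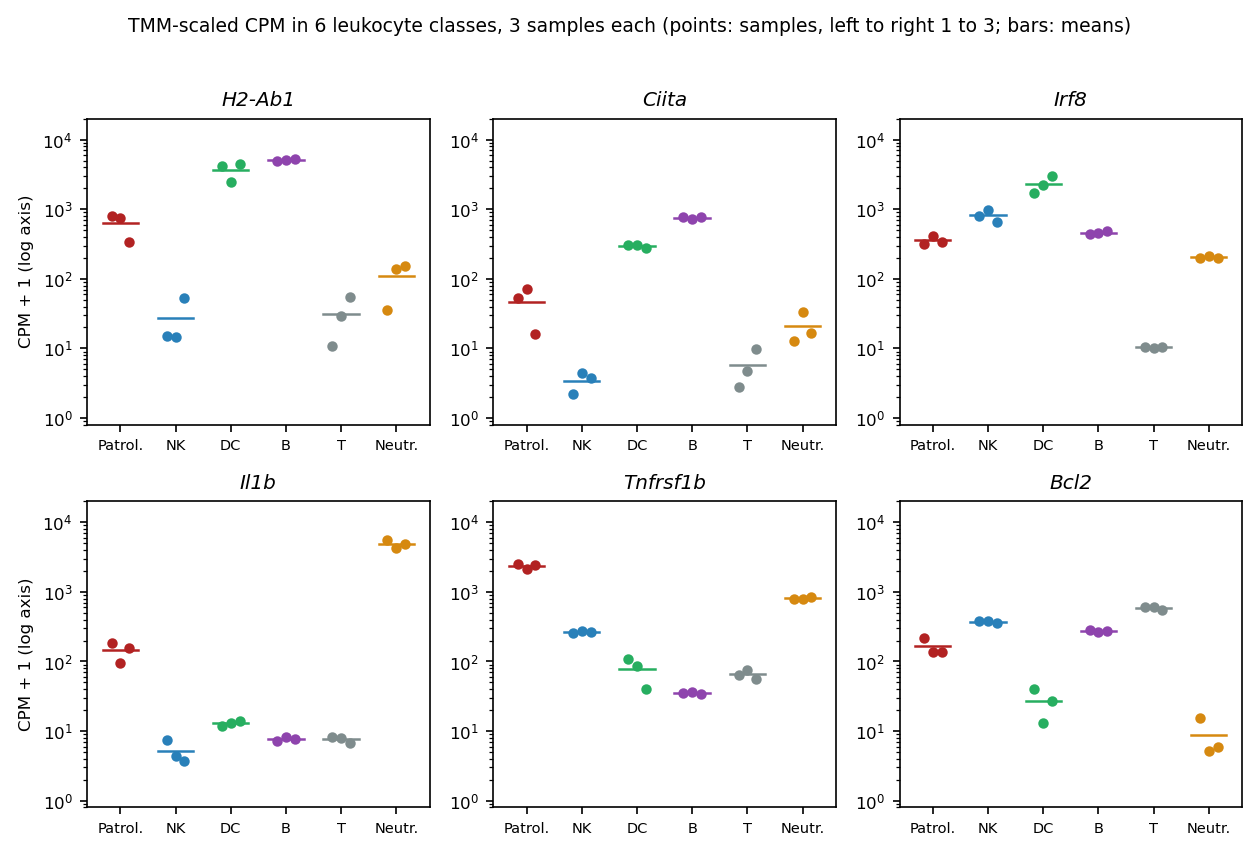
Level of H2-Ab1, Ciita, Irf8, Il1b, Tnfrsf1b and Bcl2 (TMM-scaled CPM plus 1, log axis) in the 6 classes; points are the 3 libraries and bars their mean. H2-Ab1, Ciita and Irf8 lie below dendritic cells, Il1b (93.6 to 185) lies below neutrophils (4319 to 5560), Tnfrsf1b is highest in patrolling monocytes, and Bcl2 lies between the lymphocytes and the dendritic cells and neutrophils.

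Against B cells, 3262 genes (31.3%) were higher and 3533 (33.9%) lower, and against T cells 3292 (31.6%) and 3652 (35.1%). Plain library totals gave 2540 and 4957 against B cells and 2381 and 5551 against T cells. S1pr1 and Bcl2 were lower in members than in both lymphocyte classes. Tlr7, the endosomal sensor of single-stranded RNA that B cells also use, stood at 501, 404 and 484 CPM in members and 36.3, 49.1 and 30.3 in B cells (log2 fold 3.63, SE 0.20, adjusted p = 2.92e-09). Ctss, the cathepsin that cuts the invariant chain, stood at 4133, 4138 and 4047 CPM against 1031, 1074 and 1056 in B cells (log2 fold 1.96, SE 0.10, adjusted p = 8.8e-23). Syk was lower in members than in B cells, at 807, 640 and 868 against 1794, 1741 and 1966 CPM (log2 fold -1.24). None of these 3 overlapped.

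S1pr1 stood at 459, 493 and 497 CPM in B cells and 666, 730 and 772 in T cells, above every member library (log2 folds -5.64 and -6.21, SE 0.19 and 0.18). Adrb1, the β1 adrenergic receptor, stood at 65.7, 70.2 and 71.3 CPM in members and had no UMI in B cells (at least 805-fold higher). Sdc4, a heparan sulphate proteoglycan, had no UMI in members and stood at 174, 153 and 167 CPM in B cells, at least 150-fold lower in members. Sidt1 likewise had no UMI in members against 176, 226 and 182 CPM in T cells, at least 168-fold lower. Sh2d1b1, an adaptor of SLAM receptors, stood at 408, 351 and 374 CPM in members, with 2 UMIs in all T cells (pooled ratio 5682, interval 1569 to 46975).

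Of 34 paired receptors, 30 were higher than in B cells and 31 higher than in T cells, with 1 and 2 lower (medians 7.23 and 7.79). Scavenging and lipid genes gave 30 of 36 higher and 1 lower against B cells and 28 and 2 against T cells. Of 33 adhesion genes, 24 were higher and 5 lower against B cells and 20 and 9 against T cells. Of 51 transcription factors, 35 and 37 were higher and 9 and 8 lower (medians 1.39 and 2.42). Interferon-stimulated genes gave 19 of 36 higher and 7 lower against B cells, and 16 and 10 against T cells, with medians of 0.52 and -0.03. Cytokine receptors gave 19 of 40 higher and 12 lower against T cells, with a median of 0.22 that became -0.19 under plain library totals. Over all genes tested, 31.3% were higher and 33.9% lower against B cells and 31.6% and 35.1% against T cells, so the share of cytokine receptors lower than in T cells lay near that of all genes.

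Against neutrophils, 3274 genes (31.5%) were higher and 2983 (28.7%) lower. Plain library totals gave 5378 and 1700, with the median log2 fold of all genes moved from 0.04 to 0.54, and the tighter neutrophil gate gave 3704 and 3539 of 10274 genes. Il1b and the receptors C5ar1, Fpr1 and Cxcr4 were lower in members, and 27 of 36 interferon-stimulated genes were lower and 3 higher. Tnfrsf1b, which encodes tumour necrosis factor receptor 2, stood at 2532, 2140 and 2456 CPM in members and 780, 800 and 836 in neutrophils, without overlap (log2 fold 1.57, SE 0.09, adjusted p = 3.2e-20). Its mean in any other class was at most 263 CPM.

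Il1b, the precursor of interleukin-1β, stood at 185, 93.6 and 153 CPM in members against 5560, 4319 and 4888 in neutrophils (log2 fold -5.02, SE 0.12, adjusted p = 2.57e-34). Il1f9 had no UMI in members and stood at 839, 876 and 946 CPM in neutrophils, at least 781-fold lower in members. Tnf went the other way: it stood at 114, 73.1 and 148 CPM in members and was higher than in neutrophils (log2 fold 2.01). C5ar1 and Fpr1, which guide neutrophils to complement and bacterial peptides, were lower in members, and other receptors of this kind are not described here. C5ar1, the receptor for complement C5a, stood at 115, 84.8 and 117 CPM against 1508, 1198 and 1537 (log2 fold -3.73, SE 0.11, adjusted p = 1.54e-29). Fpr1, the formyl peptide receptor, stood at 39.9, 40.9 and 43.3 against 331, 352 and 372 (log2 fold -3.06), and Ccr1 gave 1 UMI in all members against 791, 779 and 911 CPM in neutrophils (pooled ratio 2194 in favour of neutrophils, interval 394 to 86684).

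Cxcr4, the receptor that retains cells in bone marrow, stood at 417, 392 and 405 CPM in members and 1396, 1228 and 1148 in neutrophils (log2 fold -1.63, SE 0.10, adjusted p = 5.87e-19). Clec4d, a lectin for fungal and mycobacterial sugars, stood at 10.6, 14.6 and 10.2 CPM against 1828, 1488 and 1914 (log2 fold -7.32, SE 0.16). Slc40a1, the iron exporter ferroportin, stood at 3.03, 0 and 2.55 CPM against 1559, 1454 and 1509 (log2 fold -9.20, SE 0.20, adjusted p = 2.57e-34). Hfe, a regulator of iron uptake, was higher in members, at 825, 851 and 927 CPM against 33.3, 21.5 and 32.2 (log2 fold 4.79, SE 0.10). For each of these 4 genes the libraries of both classes were far apart.

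With the main gate, members and neutrophils stood close together in several general myeloid genes. Fgr, Lyz2 and Sirpa were picked for an absolute log2 fold under 1 against neutrophils, so their closeness follows from that choice. Fgr, Itgb2 and Lyz2 differed with the tighter gate. Fgr, a Src-family kinase, stood at 1745, 1573 and 1970 CPM in members and 1782, 1382 and 1945 in neutrophils (log2 fold 0.05, adjusted p = 0.902). The tighter gate gave a log2 fold of -0.47 for Fgr (adjusted p = 2.01e-06). Itgb2 stood at 3667, 2968 and 3464 against 3172, 2578 and 3041 CPM (log2 fold 0.20, adjusted p = 0.158, and -0.30 with the tighter gate, adjusted p = 0.00138). Lyz2, lysozyme, stood at 6191, 6325 and 6969 CPM against 7881, 9431 and 7998 (log2 fold -0.37, adjusted p = 0.0449). That call was lost without the library block (adjusted p = 0.134), with the DESeq2 Wald test (0.0836) and without replicate 2 (0.298). The direction turned with the tighter gate (log2 fold 1.11, adjusted p = 5.57e-05) and under plain library totals (log2 fold 0.14). Sirpa, a receptor for the signal CD47, was lower in members, at 1159, 1003 and 1130 against 1575, 1477 and 1587 CPM (log2 fold -0.49), and was 0.02 under plain totals.

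Of 36 interferon-stimulated genes, 3 were higher than in neutrophils and 27 lower (median log2 fold -1.67), and 9 and 23 with the tighter gate. Rsad2, viperin, stood at 8.09, 79.0 and 15.3 CPM in members and 227, 434 and 172 in neutrophils, highest in replicate 2 in both (log2 fold -3.64, adjusted p = 0.00203). Oasl2 stood at 42, 90.6 and 33.1 against 545, 723 and 445 CPM, again highest in replicate 2 (log2 fold -3.56). Ifitm3, which blocks virus entry, was among the 3 higher genes, at 1630, 2249 and 1514 against 1188, 1712 and 1034 CPM. Within each library Ifitm3 was higher in members (log2 fold 0.46, adjusted p = 4.88e-05), and without the library block the call was lost (adjusted p = 0.139). Ifitm6, at 758, 871 and 820 against 593, 795 and 602 CPM, behaved alike (log2 fold 0.32, adjusted p = 0.00136, and 0.0677 without the block).

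Other lists split against neutrophils. Of 29 chemokine receptor and egress genes, 2 were higher and 20 lower (median -1.19), and of 19 complement genes 3 and 12 (median -1.55). Of 34 paired receptors, 6 were higher and 22 lower, with 12 and 18 under plain totals and 7 and 24 with the tighter gate. The inhibitory lectins Clec4a1 and Clec4a3 were nevertheless higher, at log2 folds of 2.01 and 2.14. Scavenging and lipid genes gave 14 higher and 15 lower of 36, 20 and 9 under plain totals, and 19 and 12 with the tighter gate. Transcription factors gave 18 higher and 12 lower of 51 (median 0.17). Plain totals gave 26 and 8 (median 0.68), and the tighter gate 19 and 15 (median -0.09). Survival genes gave 13 of 37 higher and 15 lower (median -0.28), and 17 and 8 with a median of 0.22 under plain totals. The tighter gate gave 11 and 19 survival genes (median -0.38). Actin genes gave 5 of 32 higher and 18 lower (median -0.33), and 16 and 12 with a median of 0.18 under plain totals. With the tighter gate, 3 actin genes were higher and 24 lower (median -0.66). Iron and haem genes gave 7 of 22 higher and 10 lower (median -0.39, and 0.12 under plain totals), and cytokine receptors 8 of 40 and 16 (median -0.32, and 0.13 under plain totals). With the tighter gate the medians of these lists were -0.46 and -0.58. These counts stand beside 31.5% higher and 28.7% lower over all genes tested.

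**Figure D4:**
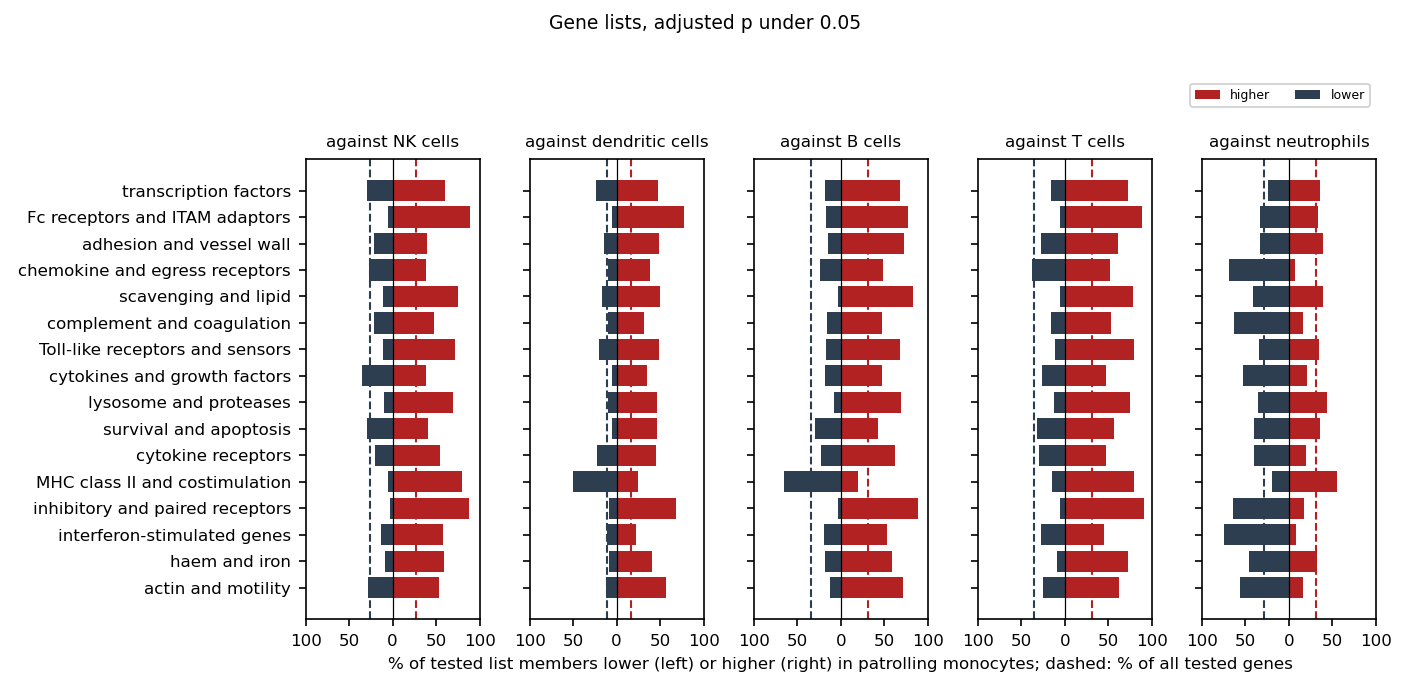
Percent of the tested members of 16 gene lists called higher (right) or lower (left) in patrolling monocytes, in a panel for each of the 5 comparisons; dashed lines give the percent of all tested genes. The bars for paired receptors reach far to the right in the NK, dendritic, B and T panels (30, 23, 30 and 31 of 34) and to the left in the neutrophil panel (22 of 34), and class II genes lean left against dendritic and B cells.

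Members were not uniform in MHC class II. Of 601 members, 365 held no UMI of H2-Aa, H2-Ab1 and H2-Eb1, 477 held at most 2, 34 held 3 to 9 and 90 (15.0%, exact 95% interval 12.2 to 18.1) held 10 or more. The last group made up 16.2%, 13.9% and 10.4% of members in replicates 1, 2 and 3. This split was chosen after its values were seen, and what follows is a description with no test. The 90 members held more UMIs, with a median of 6194 UMIs against 4549 in the 477.

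Other class II pathway genes moved with the split. Pooled CPM over raw totals were 199 against 7.05 for Ciita, 13001 against 775 for Cd74 and 310 against 50.7 for H2-DMa in the 90 and the 477 members. Axl, a receptor for apoptotic cells, stood at 93.2 against 4.85, Tmem176b at 313 against 27.3, Slamf7 at 58.0 against 1.32 and Batf3, a dendritic-cell factor, at 82.7 against 4.85. Fcgr4 was lower in the 90, at 559 against 1039, and in each library (598, 388 and 435 against 1071, 1203 and 754). Cd300e (677 against 1052), Cd36 (549 against 821) and Fpr2 (45.7 against 195) were lower as well. Ace, at 4496 against 4606, and Nr4a1, at 1988 against 2478, were present in both.

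Markers of other cells in the 90 were mixed. Flt3, the growth factor receptor of dendritic cells, gave 1 UMI in the 90 and none in the 477. Cd79a stood at 15.8 against 10.1 CPM, although the gate limits it, and Itgax at 366 against 317. At least 5 UMIs of the 4 genes of Ly6C-high monocytes were found in 26 of the 90 and 28 of the 477, a larger share of the 90. The part of these transcripts, or of the higher depth, in the split was not tested.

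**Figure D5:**
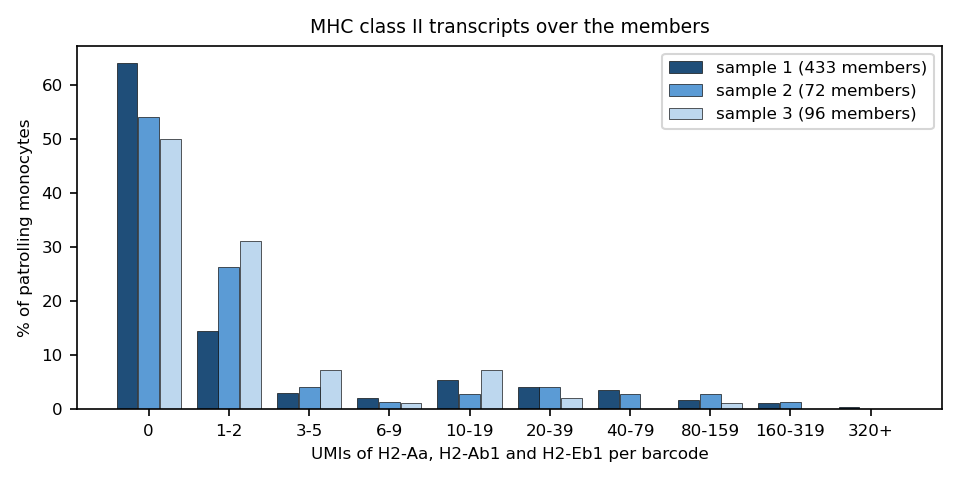
Percent of patrolling monocytes (vertical axis) by their summed UMIs of H2-Aa, H2-Ab1 and H2-Eb1 (horizontal axis), for each of the 3 libraries. Most members lie at 0 to 2 UMIs, few at 3 to 9, and 16.2%, 13.9% and 10.4% lie at 10 or more.

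The spread of each gene over members was also measured. Of 5521 genes with 100 or more UMIs in members, the median variance over the mean of depth-scaled counts was 1.15, and 161 were above 2. At the low end of these counts the ratio lies near 1 whatever the spread between cells, so the median does not show that genes varied little. Haemoglobin genes, Cd74 and Ccl5 had the highest ratios, followed by Hmox1, the haem-degrading enzyme heme oxygenase 1, at 49.3. A Hmox1 UMI was found in 39.4% of members, and the 30 members with the most held 66.6% of its UMIs. Krt80, a keratin, had a ratio of 6.43. Ccl5 gave 346 UMIs, 99.7% of them in the 30 members with the most. The figure of 30 is a fixed cut for every gene and no count of the cells that held it. The part of the members with NK transcripts in the Ccl5 UMIs was not tested.

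The levels of members were also compared between the 3 libraries. Over the same 5521 genes the median chi-square per degree of freedom was 1.04, and 37 genes were above 20. The low counts of replicates 2 and 3 limit this measure, and the median does not show that the libraries were alike. Among them, the interferon-stimulated genes Slfn5 (47.8, 173 and 11.7 CPM over raw totals) and Ifi27l2a (281, 519 and 192) and the myeloid gene Plac8 (1690.5, 3361.5 and 1677.8) were highest in replicate 2, which also had the most haemoglobin RNA. Apoe was highest in replicate 3, at 7222 against 5248 and 4622, as was the intermediate filament gene Vim, at 1701 against 1110 and 1396. With a single library per age, these differences have no replicate check, and age, library and the amount of red-cell RNA cannot be told apart.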

How the data were processed

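Blood leukocytes of untreated mice (3 samples) were measured by 10x fixed-RNA profiling, and the authors deposited a matrix of raw UMI counts per gene and barcode for each, written by Cell Ranger 7.1.0 per the file headers. The barcode and feature lists hold identifiers and no measurement (a unit called other). No label or header names the genome build, and the probe set is not stated there. The libraries held 11105, 5736 and 7029 barcodes and 45718031, 19591648 and 23443660 UMIs, and 11004, 5051 and 6633 barcodes had 200 or more genes.

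Members and comparison classes were gated on raw UMIs, with no doublet removal. Counts were summed per class and library (18 sums). The members' sums held 2217133, 369771 and 427334 UMIs. The sums were tested with edgeR 4.0.16 (filterByExpr, TMM, robust quasi-likelihood fit, library as block) in R 4.3.3. Benjamini-Hochberg adjustment covered the 10410 genes outside the gates, and gate genes were not tested. The classes of a library come from the same blood, which is where the pairing comes from. Because classes were gated on transcripts of the same barcodes, 1 alternative gated on 50% of the UMIs of each gene and barcode, drawn at random, and tested the rest. Where a class had no UMI of a gene, a fold is a lower bound against 3 UMIs over the group. With 1 to 3 UMIs a ratio of pooled counts with its exact 95% interval is given. Shares carry exact binomial intervals, and thinning drew 2000 UMIs per barcode. Scripts were tested on simulated counts.

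The members and the 16 gene lists (562 genes, of which 553 are in the matrix) were chosen with earlier results of these data known. Named genes were list genes, the 20 genes with the largest smallest fold among those higher against all 5 classes, the 6 highest and 6 lowest genes of each comparison outside the lists, and genes shared with 1 other class. Alternatives were DESeq2 1.42.0 (size factors, and its Wald test), plain totals, no filter, no block, leaving out each library, a gate sum of 8 or more, doublets removed with Scrublet (scanpy 1.11.5), the split counts and 3 changes of gates chosen after seeing the data. Promoters came from the RefSeq table of GRCm38.p6, and positions from GENCODE M21. Some genes are not reported here.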

Additional observations from a re-analysis of the deposited data

How the results depend on the processing

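Leaving out each library in turn gave 1887 to 2625 genes higher and 1574 to 2705 lower against NK cells, 948 to 1440 and 542 to 1053 against dendritic cells, 2454 to 3084 and 2359 to 3616 against B cells, 2527 to 3169 and 2497 to 3875 against T cells, 1858 to 3019 and 2090 to 3210 against neutrophils, and 283 to 428 genes higher against all 5 classes. The lowest counts were those without replicate 1, which holds 433 of the 601 members, and 278 of its 283 genes were among the 490. Plain library totals gave 4338 genes lower against NK cells, 1021 higher and 1787 lower against dendritic cells, 5551 lower against T cells, and 5378 higher and 1700 lower against neutrophils. The split counts gave 528 genes lower against dendritic cells. Without the replicate block 469 genes were higher against all 5 classes, 460 of them among the 490. Among the genes named, its removal ended the calls of Klf4 against dendritic cells, Dusp5 against NK cells (adjusted p = 0.0866), and Ifitm3, Ifitm6 and Lyz2 against neutrophils, and changed no other call. The gates chosen after seeing the data gave 417 genes (397 shared) for neutrophils, 492 (459 shared) for dendritic cells and 501 (490 shared) with members that held NK transcripts left out. Over the 320 comparisons of a named gene with a class, 3977 alternative values were computed: 3906 kept direction and side of the threshold, 42 lost the call, 18 gained it and 11 changed sign. The sign changed for Klf4 against dendritic cells (log2 fold -0.011) and S1pr5 against NK cells (-0.0145) under plain totals, and against neutrophils for Itgb2 (-0.0552 with split counts, -0.30 with the tighter gate), Fgr (0.05 with all libraries, 0.10 without replicate 1, -0.0778 without replicate 2, -0.20 with split counts, -0.47 with the tighter gate), Lyz2 (0.14 under plain totals, 0.30 with split counts, 1.11 with the tighter gate) and Sirpa (0.0212 under plain totals). Causes were not tested beyond the smaller samples that leaving out a library or splitting counts makes. The mean share of members was 2.24% ± 1.44 with the stricter gate and 2.36% ± 1.55 with doublets removed, which took out 5 members. The 44 dendritic cells and the 72 and 96 members of replicates 2 and 3 set the depth that limits these results.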
